A study of Mus musculus with 8 samples.

Results

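A set of 10 genes used as markers of resident or of recruited liver macrophages, not all of them specific, was followed through 8 RNA-seq libraries of whole mouse liver. Genes were chosen by name: Clec4f, Vsig4, Marco, Cd5l and Emr1 as markers of Kupffer cells, and Trem2, Gpnmb, Itgax, Cd9 and Cd68 as markers of infiltrating or lipid-associated macrophages. All 10 were present among the 37583 genes of the count table, and all 10 passed the filter on low counts that left 17362 genes for testing. Poly(A) RNA from liver was sequenced on an Ion Proton instrument, and reads were counted per gene.

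Kupffer cells are the resident macrophages of the liver sinusoids, where they take up particles, lipoproteins and ageing red cells. Monocytes that enter an injured liver can become macrophages that lack part of the Kupffer cell programme, and those exposed to lipid or dying cells can take on a lipid-handling state first described in fat tissue and fatty liver. That state is recognised by Trem2, a lipid receptor, and Gpnmb, a lysosomal and surface glycoprotein. Cd68 and Cd9 are also made by many other cells, and no member's source was tested in this whole tissue.

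All mice were C57BL6/CBA, 8 months old and on standard chow. The 2 WT libraries came from untreated wild-type mice. The 4 PR-SET7_LOBE libraries carry the genotype label PR-SET7_LX_ALB_CRE, that is, inactivation of the histone methyltransferase PR-SET7 with a Cre driven by the albumin promoter, which is active in hepatocytes and not in macrophages. The labels do not explain the word LOBE, and the controls are not described as carrying either the floxed allele or Cre alone. The 2 DEN_WT libraries came from wild-type mice given diethylnitrosamine (DEN), a liver carcinogen, by intraperitoneal injection at day 15 of life. The volume was 25 ml per kg, its DEN concentration is not stated, and a vehicle-injected group was not analysed here.

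Libraries held 7305595 to 16108081 gene counts. The hepatocyte list was abundant in all of them, with a summed level of its 10 genes from 38700 to 148696 CPM (counts per 1000000 of the TMM-scaled library size). PR-SET7_LOBE replicate 1 stood apart: its log expression correlated more closely with the WT libraries (mean r = 0.923) than with its own group (mean r = 0.890). Setd8, the gene encoding PR-SET7, read 51.9 and 56.0 CPM in WT and 62.6, 57.4, 47.9 and 46.5 CPM in PR-SET7_LOBE (log2 fold change -0.0086, SE 0.32, adjusted p = 0.994). The deleted part of Setd8 is not given in the sources used here, and hepatocytes share the tissue with other cells, so this gene-level count does not check the genotype labels. The labels give no animal, run or date for any library, so p-values measure only the spread between these samples, and sequencing run and group cannot be told apart. In whole tissue, fewer cells of a type and less RNA per cell cannot be told apart either.

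The markers Trem2, Gpnmb and Itgax were higher in every PR-SET7_LOBE and every DEN_WT library than in both WT libraries. Their promoter windows are shown because each of these members separated both groups from WT. The windows run from 250 bases before to 50 bases after the gene start, 5′ to 3′ on the gene's strand (RefSeq, GRCm38.p6), with matches to the searched motifs in capitals, on either strand. On build mm9, as in the deposited table, the genes lie at chr17:48485726-48493472 (Trem2), chr6:48986517-49020928 (Gpnmb) and chr7:135273061-135294171 (Itgax), and none overlaps another gene there. The windows, on their own build, lie at chr17:48346151-48346450 (Trem2, plus strand), chr6:49036268-49036567 (Gpnmb, plus strand) and chr7:128129300-128129599 (Itgax, plus strand).
Trem2: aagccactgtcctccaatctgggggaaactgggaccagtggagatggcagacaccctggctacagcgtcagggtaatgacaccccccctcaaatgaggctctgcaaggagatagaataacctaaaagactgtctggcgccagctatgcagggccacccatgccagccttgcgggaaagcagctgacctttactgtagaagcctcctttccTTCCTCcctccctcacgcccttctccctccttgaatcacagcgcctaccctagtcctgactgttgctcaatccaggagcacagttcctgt
Gpnmb: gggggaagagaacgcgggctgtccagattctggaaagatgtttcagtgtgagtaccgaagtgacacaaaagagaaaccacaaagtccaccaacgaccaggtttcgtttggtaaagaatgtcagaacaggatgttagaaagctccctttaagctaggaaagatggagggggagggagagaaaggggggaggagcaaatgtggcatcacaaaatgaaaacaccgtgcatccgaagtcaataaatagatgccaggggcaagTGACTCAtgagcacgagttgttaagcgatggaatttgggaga
Itgax: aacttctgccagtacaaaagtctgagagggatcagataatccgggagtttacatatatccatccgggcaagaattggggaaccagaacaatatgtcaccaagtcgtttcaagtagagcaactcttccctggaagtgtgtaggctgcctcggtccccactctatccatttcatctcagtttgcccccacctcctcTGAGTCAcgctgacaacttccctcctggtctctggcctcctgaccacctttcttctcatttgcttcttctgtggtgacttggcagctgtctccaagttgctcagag

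RefSeq windows were found for 9 of the 10 members. The motifs searched, on both strands, were these 4: the E-boxes CACGTG and CATGTG, the core GAGGAA bound by the myeloid factor PU.1, and the AP-1 motif TGACTCA, which was added after the first 3 had given no match in Gpnmb or Itgax. CACGTG was in 0 of the 9 members' windows and in 7.15% of 32851 windows in the table. CATGTG was in 2 of 9 (Marco and Cd9), against 14.2% of all windows. GAGGAA was in 5 of 9, including Trem2 at position -40 from the start, against 28.3% of all windows. TGACTCA was in 3 of 9, at position 8 in Gpnmb, at position -56 in Itgax and in Cd68, against 5.20% of all windows. These are matches of letters only, and no binding was measured.

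**Figure D1:**
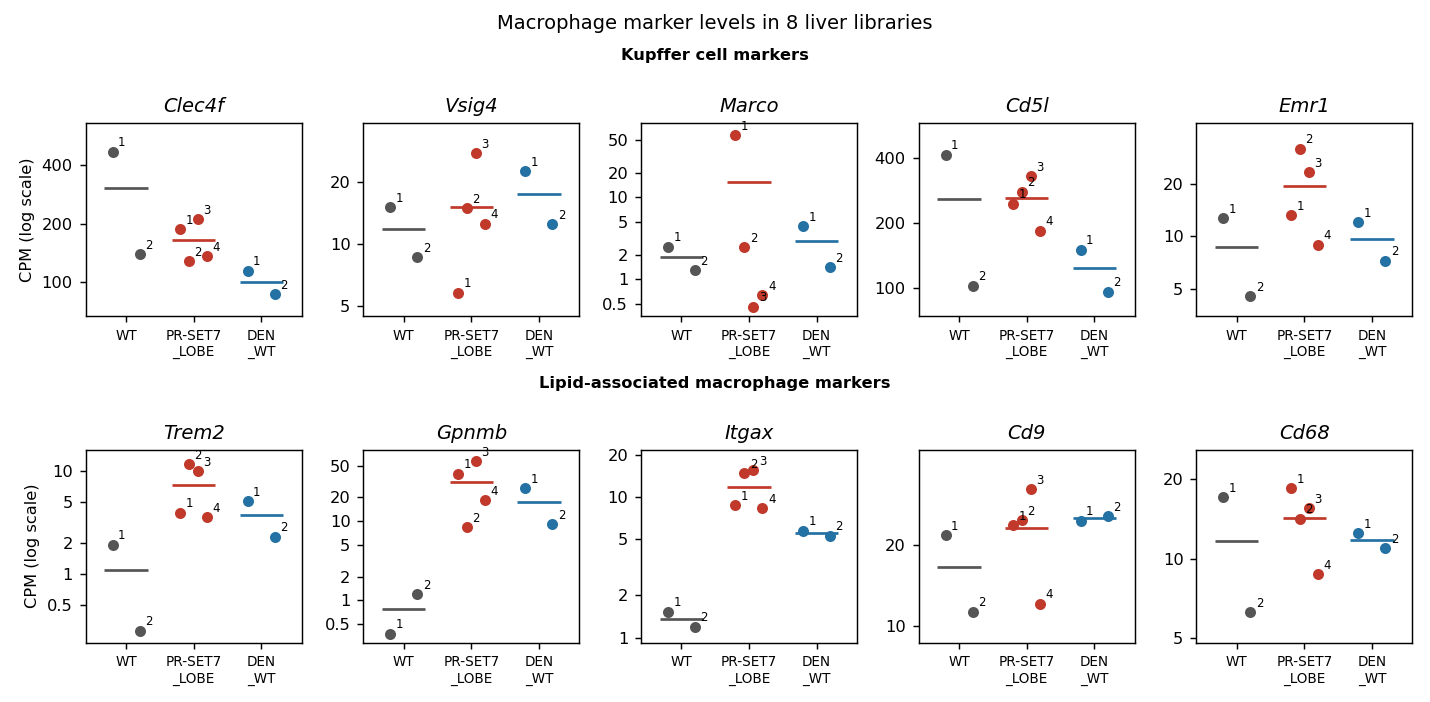
Level of each member in CPM (log axis) in every library, by group. Points are libraries with their replicate numbers and bars are group means. Trem2, Gpnmb and Itgax lie above both WT libraries in all 6 other libraries, while Clec4f and Cd5l span a wide range between the WT libraries.

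Gpnmb, whose product marks lipid-loaded and lysosome-stressed macrophages, had the largest difference among the 10 members. It read 0.383 and 1.20 CPM in WT (4 and 13 counts), 39.5, 8.42, 57.1 and 18.2 CPM in PR-SET7_LOBE replicates 1 to 4, and 26.1 and 9.19 CPM in DEN_WT. No library of either group came near the WT levels, and within each of these groups the levels spread several-fold. The log2 fold change against WT was 4.45 in DEN_WT (SE 0.99, adjusted p = 0.0193), past the 0.05 threshold. In PR-SET7_LOBE it was 5.26 (SE 0.98, adjusted p = 0.0601), just short of it. Gpnmb passed in PR-SET7_LOBE with DESeq2 (adjusted p = 2.6e-08) and without PR-SET7_LOBE replicate 1 (log2 fold change 5.12, adjusted p = 0.0239), among 9 of 16 alternatives that passed. It did not pass without WT replicate 1 (4.66, adjusted p = 0.239) or WT replicate 2 (6.37, adjusted p = 0.411). In DEN_WT the call was lost without WT replicate 1 (adjusted p = 0.135), WT replicate 2 (0.0645) or DEN_WT replicate 1 (0.0873). DEN_WT and PR-SET7_LOBE overlapped for Gpnmb, with a log2 fold change of 0.80 between them (SE 0.72, adjusted p = 0.508). Which cells of the liver made Gpnmb was not tested.

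Itgax, the integrin subunit also known as CD11c, was the member whose WT libraries were closest, differing 1.28-fold. It read 1.53 and 1.20 CPM in WT, 8.73, 14.7, 15.5 and 8.29 CPM in PR-SET7_LOBE and 5.76 and 5.30 CPM in DEN_WT. None of the 3 groups overlapped, in the order WT, DEN_WT, PR-SET7_LOBE. Itgax rose in PR-SET7_LOBE (log2 fold change 3.10, SE 0.53, adjusted p = 0.0411) and in DEN_WT (2.01, SE 0.54, adjusted p = 0.0422). Between those 2 groups the log2 fold change was 1.09 (SE 0.46, adjusted p = 0.157), so the order of DEN_WT and PR-SET7_LOBE did not pass the test. Both calls were close to the threshold. The call in PR-SET7_LOBE was lost when only these 2 groups were fitted (adjusted p = 0.0751) and without WT replicate 1 (0.193), WT replicate 2 (0.447), PR-SET7_LOBE replicate 2 (0.0984), PR-SET7_LOBE replicate 3 (0.0702), DEN_WT replicate 1 (0.0739) or DEN_WT replicate 2 (0.0718). In DEN_WT it was lost without WT replicate 1 (0.152), WT replicate 2 (0.193), PR-SET7_LOBE replicate 2 (0.0541), DEN_WT replicate 1 (0.190) or DEN_WT replicate 2 (0.184). Itgax shares 95.0% identity over 758 transcript bases with Itgad, its neighbour in the same integrin family, and how shared reads were counted is not given in the sources used here. Itgad itself held 2 and 3 counts in WT, 15, 9, 9 and 17 in PR-SET7_LOBE, with 4 and 2 in DEN_WT, far fewer than Itgax.

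Trem2, a lipid receptor by which the lipid-associated state is recognised, was rare in WT, at 1.91 and 0.277 CPM (20 and 3 counts). It reached 3.94, 11.7, 10.03 and 3.55 CPM in PR-SET7_LOBE and 5.14 and 2.30 CPM in DEN_WT. All 6 were above both WT libraries, with the lowest close to WT replicate 1. The log2 fold change against WT was 2.73 in PR-SET7_LOBE (SE 0.87, adjusted p = 0.181) and 1.76 in DEN_WT (SE 0.91, adjusted p = 0.225), and neither passed. Trem2 passed in PR-SET7_LOBE with DESeq2 (adjusted p = 0.0195) and without PR-SET7_LOBE replicate 1 (2.94, adjusted p = 0.0498). Leaving out WT replicate 1, which held most of the WT counts, moved the value in PR-SET7_LOBE to 4.66 (adjusted p = 0.222) and that in DEN_WT to 3.71 (adjusted p = 0.137). Without WT replicate 2 they were 2.00 (adjusted p = 0.615) and 1.05 (adjusted p = 0.559), and without DEN_WT replicate 1 the DEN_WT value was 1.09 (adjusted p = 0.652).

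Cd9, a tetraspanin, and Cd68, a lysosomal glycoprotein of phagocytes, were the more abundant members of the lipid-associated set and did not pass in any comparison. Cd9 read 21.6 and 11.3 CPM in WT, 23.6, 24.6, 31.9 and 12.1 CPM in PR-SET7_LOBE and 24.4 and 25.4 CPM in DEN_WT. WT and PR-SET7_LOBE overlapped (log2 fold change 0.48, SE 0.44, adjusted p = 0.569), and both DEN_WT libraries lay just above WT (0.60, SE 0.50, adjusted p = 0.448). Cd9 shares 91.1% identity over 665 bases with the pseudogene Cd9-ps. The pseudogene held 4 and 1 counts in WT, 2, 2, 1 and 0 in PR-SET7_LOBE, but 108 and 234 in DEN_WT, where Cd9 held 276 and 288. Cd9-ps rose in DEN_WT against WT (log2 fold change 5.93, SE 0.94, adjusted p = 0.0041). How reads that fit both genes were assigned is not stated, so the Cd9 level in DEN_WT is uncertain. Cd68 read 17.0 and 6.27 CPM in WT, 18.4, 14.2, 15.5 and 8.75 CPM in PR-SET7_LOBE and 12.5 and 10.9 CPM in DEN_WT. Every group overlapped with WT for Cd68, with log2 fold changes of 0.29 (SE 0.47, adjusted p = 0.767) and 0.0087 (SE 0.54, adjusted p = 0.993).

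Clec4f, a C-type lectin made almost only by Kupffer cells in the mouse, was the Kupffer cell member with the lowest levels relative to WT. It read 471 and 139 CPM in WT, 187, 128, 211 and 136 CPM in PR-SET7_LOBE, and 115 and 86.8 CPM in DEN_WT. Both DEN_WT libraries lay below both WT libraries, and PR-SET7_LOBE overlapped with WT. The 2 WT libraries differed 3.38-fold, more than the group means of WT and PR-SET7_LOBE did (305 ± 235, SD, n = 2, against 166 ± 40.1, SD, n = 4). The log2 fold change was -1.60 in DEN_WT (SE 0.58, adjusted p = 0.100) and -0.88 in PR-SET7_LOBE (SE 0.47, adjusted p = 0.350). DESeq2 called Clec4f lower in DEN_WT (adjusted p = 0.0420). Without WT replicate 1 the value was -0.45 in DEN_WT and turned to 0.24 in PR-SET7_LOBE.

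Cd5l, a secreted scavenger protein that sustains macrophage survival, behaved much like Clec4f within WT, at 413 and 102 CPM, a 4.04-fold difference between the 2 libraries. In PR-SET7_LOBE it read 245, 278, 329 and 184 CPM, all between the WT values, and in DEN_WT 150 and 96.3 CPM. The log2 fold changes were 0.0093 in PR-SET7_LOBE (SE 0.53, adjusted p = 0.998) and -1.06 in DEN_WT (SE 0.62, adjusted p = 0.274). Every PR-SET7_LOBE library lay above both DEN_WT libraries for Cd5l and for Clec4f, with log2 fold changes of 1.07 (SE 0.55, adjusted p = 0.251) and 0.72 (SE 0.50, adjusted p = 0.394).

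Vsig4, a complement receptor, and Emr1, the gene of the F4/80 antigen, overlapped between WT and both other groups. Vsig4 read 15.1 and 8.67 CPM in WT, 5.82, 14.9, 27.5 and 12.6 CPM in PR-SET7_LOBE and 22.6 and 12.5 CPM in DEN_WT. Its log2 fold changes were 0.35 (SE 0.56, adjusted p = 0.760) and 0.56 (SE 0.64, adjusted p = 0.589). Emr1 read 12.7 and 4.52 CPM in WT, 13.2, 31.9, 23.3 and 8.93 CPM in PR-SET7_LOBE and 12.0 and 7.24 CPM in DEN_WT. PR-SET7_LOBE replicates 2 and 3 were the highest for Emr1, as they were for Trem2 and Itgax. Its log2 fold changes were 1.16 (SE 0.60, adjusted p = 0.333) and 0.16 (SE 0.66, adjusted p = 0.893).

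Marco, a scavenger receptor for bacteria and particles, depended on 1 library. It read 2.49 and 1.29 CPM in WT, 57.0 CPM in PR-SET7_LOBE replicate 1, 2.49, 0.464 and 0.638 CPM in the other PR-SET7_LOBE libraries and 4.43 and 1.41 CPM in DEN_WT. In PR-SET7_LOBE against WT the log2 fold change was 3.00 (SE 1.75, adjusted p = 0.381) with replicate 1 and -0.65 (adjusted p = 0.597) without it. Replicate 1 is the library that stood nearest to WT in its expression as a whole, and its part in the other values is given by leaving it out. In DEN_WT the log2 fold change of Marco was 0.63 (SE 1.80, adjusted p = 0.846).

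**Figure D2:**
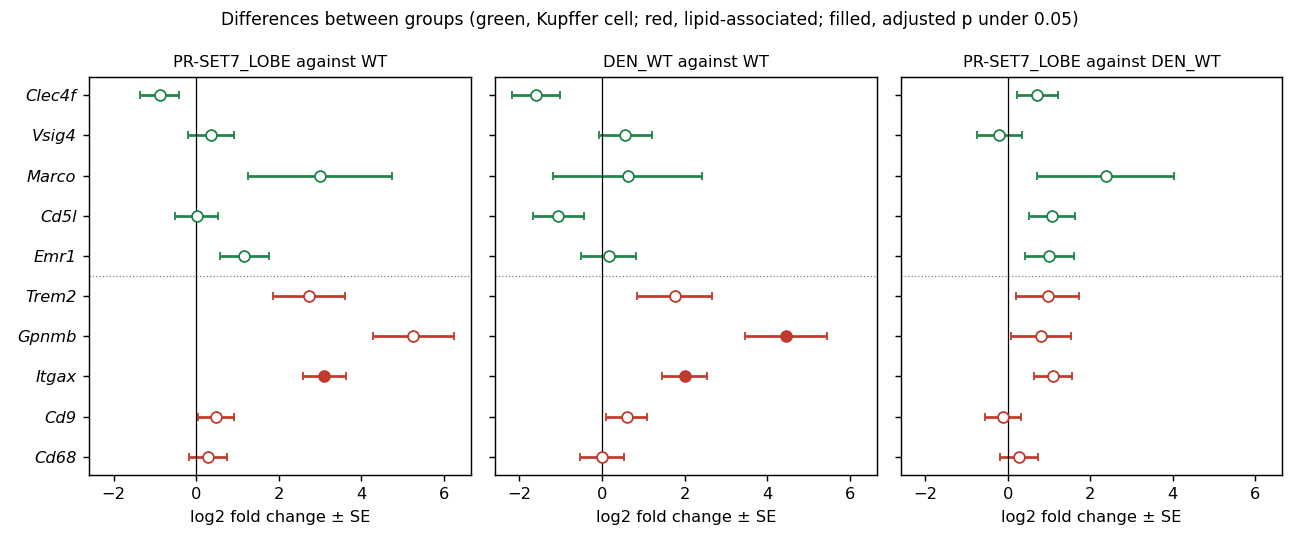
Log2 fold change of each member in the 3 comparisons, with bars of 1 SE. Filled points passed an adjusted p of 0.05: Itgax in PR-SET7_LOBE against WT, and Gpnmb and Itgax in DEN_WT against WT.

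Counted over the sets, 1 of 10 members was called in PR-SET7_LOBE against WT (Itgax, higher), where 0.150% of all tested genes were called higher and 0.0979% lower. In DEN_WT against WT, 2 of 10 were called (Gpnmb and Itgax, higher), where 5.18% of tested genes were called higher and 4.54% lower. No member was called between PR-SET7_LOBE and DEN_WT by edgeR or by DESeq2, where edgeR called 4.82% of genes higher and 6.26% lower, and 1 member (Itgax) had an unadjusted p under 0.05. DESeq2 gave no adjusted p for Marco in any comparison. Without PR-SET7_LOBE replicate 1, 3 members were called in PR-SET7_LOBE against WT (Trem2, Gpnmb and Itgax) and the same pair as before in DEN_WT.

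Non-overlap between groups was common among all genes with so few libraries. In PR-SET7_LOBE against WT, 3 members were higher in every library and 0 were lower, against 11.6% and 10.5% of tested genes. In DEN_WT against WT, 4 members (Trem2, Gpnmb, Itgax and Cd9) were higher in both libraries and 1 (Clec4f) was lower, against 37.8% and 33.3% of tested genes, so this count is near the background. In PR-SET7_LOBE against DEN_WT, 3 members (Clec4f, Cd5l and Itgax) were higher in every library and 0 were lower, against 19.3% and 21.2%. The median log2 fold change of the lipid-associated set was 2.73 in PR-SET7_LOBE and 1.76 in DEN_WT, and that of the Kupffer cell set 0.35 and 0.16. Over all tested genes the medians were 0.11 and 0.06. The 2 comparisons share the WT libraries.

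Ratios taken within a library do not depend on how libraries were scaled. Per 1000 Clec4f counts, WT libraries held 0.812 and 8.60 Gpnmb counts, PR-SET7_LOBE libraries 211, 65.8, 270 and 134, and DEN_WT libraries 228 and 106. For Itgax the same ratio was 3.25 and 8.60 in WT libraries, 46.6, 115, 73.4 and 60.9 in PR-SET7_LOBE libraries, and 50.2 and 61.0 in DEN_WT libraries. For Trem2 it was 4.06 and 1.98 in WT libraries, 21.1, 91.2, 47.5 and 26.1 in PR-SET7_LOBE libraries, and 44.8 and 26.4 in DEN_WT libraries. For all 3 ratios the WT libraries lay below the other 6, and the PR-SET7_LOBE and DEN_WT ranges overlapped. The 3 numerators were the members already above WT in all 6 libraries, and Clec4f was the Kupffer cell member with the lowest fold changes. The separation therefore follows largely from that choice and is no separate support. Ratios of Cd9 and Cd68 to Clec4f were not taken. Cd5l per 1000 Clec4f counts moved far less, from 733 and 876 in WT to 1308 to 2176 in PR-SET7_LOBE and 1109 and 1309 in DEN_WT, with WT again the lowest. Gpnmb and Trem2 did not move together within PR-SET7_LOBE. Per 1000 Trem2 counts, its replicates 1 to 4 held 10024, 721, 5694 and 5128 Gpnmb counts. The same ratio was 5086 and 4000 in DEN_WT libraries, and 200 and 4333 in WT libraries, where both genes had few counts.

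**Figure D3:**
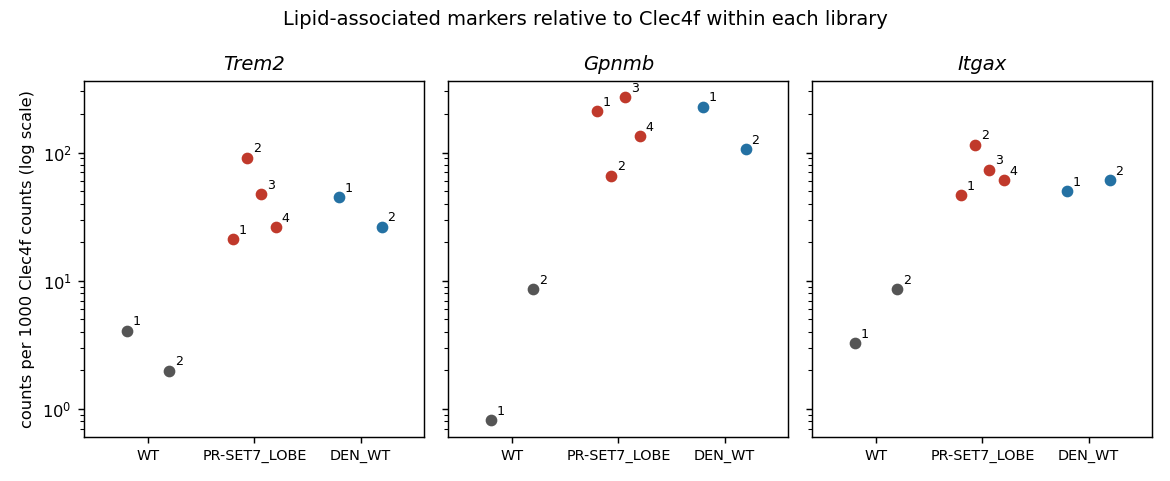
Counts of Trem2, Gpnmb and Itgax per 1000 counts of Clec4f in the same library (log axis), by group, with replicate numbers. The 2 WT libraries lie at 0.812 to 8.60 and all other libraries at 21.1 or more. The numerators were chosen as members already above WT in every other library, and Clec4f had the lowest fold changes of its set.

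The mean log2 CPM of the lipid-associated set minus that of the Kupffer cell set gave the same order. WT libraries had -3.41 and -2.74, PR-SET7_LOBE libraries -1.67, -1.28, -0.53 and -1.05, and DEN_WT libraries -1.28 and -1.02. PR-SET7_LOBE replicate 1 was the closest to WT on this index. Its Kupffer cell mean includes Marco, which read 57.0 CPM in that library, and the index was not taken without Marco. Clec4f was also compared with 21 genes that macrophages of any origin express, among them Csf1r, Lyz2 and the C1q chains. Its log2 CPM exceeded the mean of that list by 3.94 and 3.42 in WT, by 2.23, 1.43, 2.38 and 2.81 in PR-SET7_LOBE, and by 2.11 and 1.92 in DEN_WT, so Clec4f was lower relative to the macrophage list in all 6 libraries. The other Kupffer cell members did not all follow. On the same index Cd5l was at 3.75 and 2.97 in WT, 2.55 to 3.24 in PR-SET7_LOBE and 2.50 and 2.07 in DEN_WT, below WT only in DEN_WT. The index ranged for Emr1 from -1.47 to -1.25 in WT, -1.58 to -0.56 in PR-SET7_LOBE and -1.63 to -1.12 in DEN_WT. For Vsig4 it was -1.003 and -0.56 in WT, -2.74 to -0.56 in PR-SET7_LOBE and -0.22 and -0.86 in DEN_WT, and for Marco -3.52 and -3.14, -5.97 to 0.51, and -2.53 and -3.85. These 3 overlapped with WT in both groups, and Clec4f, the denominator of the ratios above, was the Kupffer cell member with the lowest fold changes. The difference between the WT libraries in Clec4f was shared by this list: 20 of its 21 genes were higher in WT replicate 1, by a median of 2.55-fold.

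Between genes, levels were compared per kilobase of transcript. Cd5l and Clec4f were the highest members in every group, at 127 ± 108 and 124 ± 95.0 CPM per kilobase in WT (SD, n = 2) and 127 ± 29.9 and 67.0 ± 16.2 in PR-SET7_LOBE (SD, n = 4). In DEN_WT they were at 60.5 ± 18.7 and 40.8 ± 7.99 CPM per kilobase (SD, n = 2). The gap between this pair was within their SD in WT, larger than either SD in PR-SET7_LOBE, and only slightly larger than the SD of Cd5l in DEN_WT. Cd9 came next in every group, at 13.4 ± 5.92 in WT, 18.8 ± 6.67 in PR-SET7_LOBE and 20.3 ± 0.574 in DEN_WT. Cd68 and Vsig4 followed at 8.31 to 12.2 CPM per kilobase in the group means and did not differ beyond their spread. Gpnmb was the lowest of the 10 in WT, at 0.214 ± 0.156 CPM per kilobase, and ranked 6 in PR-SET7_LOBE (8.33 ± 5.89) and in DEN_WT (4.77 ± 3.24). In PR-SET7_LOBE its neighbours in the order, Vsig4 (10.6 ± 6.32) and Marco (7.87 ± 14.5), were within its SD. Itgax stayed at the low end, at 0.337 ± 0.0581 in WT, 2.92 ± 0.947 in PR-SET7_LOBE and 1.37 ± 0.0797 in DEN_WT.

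Of 16 other genes reported for the lipid-associated state, 4 rose in DEN_WT (Spp1, Mmp12, Cd63 and Lpl), where 5.18% of all tested genes were called higher. In PR-SET7_LOBE 1 rose (Spp1), where that share was 0.150%. No gene of the list was called lower, and its median log2 fold changes were close, at 0.85 in DEN_WT and 0.80 in PR-SET7_LOBE. The rise was not uniform: 11 of the 16 genes were above 0 in DEN_WT and 12 in PR-SET7_LOBE. The list summed to 2442 to 2802 CPM in WT and 3078 to 3251 CPM in DEN_WT. In PR-SET7_LOBE it summed to 2058 to 3855 CPM, which overlapped with WT. Spp1, the secreted matrix protein osteopontin, read 15.5 and 9.04 CPM in WT, 176, 249, 191 and 68.8 CPM in PR-SET7_LOBE, and 383 and 679 CPM in DEN_WT. Spp1 rose in both groups, by 5.43 on the log2 scale in DEN_WT (SE 0.72, adjusted p = 0.0022) and by 3.80 in PR-SET7_LOBE (SE 0.64, adjusted p = 0.0411). Bile duct cells make Spp1 as well, and it is also on the cholangiocyte list.

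Mmp12, the macrophage elastase, rose in DEN_WT (log2 fold change 4.66, SE 0.85, adjusted p = 0.0082) and differed in PR-SET7_LOBE by 3.44 (SE 0.78, adjusted p = 0.0972). Lpl, lipoprotein lipase, had 4.04 (SE 0.96, adjusted p = 0.0258) and 3.74 (SE 0.90, adjusted p = 0.114), and Cd63, a tetraspanin of lysosomes, 3.68 (SE 0.85, adjusted p = 0.0238) and 3.96 (SE 0.83, adjusted p = 0.0854). In all 3 genes every library of both groups lay above WT. These genes are not restricted to macrophages.

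Of 16 other Kupffer cell genes, 0 passed in any comparison, and their median log2 fold changes were 0.02 in PR-SET7_LOBE and 0.16 in DEN_WT. The smallest adjusted p in the list against WT was 0.243 in PR-SET7_LOBE and 0.207 in DEN_WT. Spic, a transcription factor of red pulp and iron-recycling macrophages, had 0.383 and 0.645 CPM in WT and 2.21 and 1.68 CPM in DEN_WT (log2 fold change 1.89, SE 0.94, adjusted p = 0.207). Nr1h3, the oxysterol receptor LXR-alpha that hepatocytes also express, had 243 and 221 CPM in WT and 114 and 125 CPM in DEN_WT (-0.96, SE 0.48, adjusted p = 0.215). Cd163, the haemoglobin scavenger receptor, had 4.21 and 6.91 CPM in WT and 1.69 to 4.10 CPM in PR-SET7_LOBE (-1.03, SE 0.65, adjusted p = 0.415), with 14.8 and 2.91 CPM in DEN_WT (PR-SET7_LOBE against DEN_WT -1.70, SE 0.64, adjusted p = 0.119). Fcna, the plasma lectin ficolin-A, had 46.4 and 35.5 CPM in WT, 17.8 to 29.3 CPM in PR-SET7_LOBE (-0.92, SE 0.36, adjusted p = 0.243) and 30.1 and 17.8 CPM in DEN_WT (-0.77, SE 0.43, adjusted p = 0.253). Clec1b, a platelet-binding lectin receptor, had 3.45 and 1.57 CPM in WT and 5.76 and 5.56 CPM in DEN_WT (1.17, SE 0.60, adjusted p = 0.221).

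Downstream of Trem2, 6 of 7 genes of its signalling path were tested and 0 passed. Tyrobp, the adaptor that carries the Trem2 signal and also serves other receptors, had log2 fold changes of 0.41 in PR-SET7_LOBE (adjusted p = 0.709) and 0.23 in DEN_WT (adjusted p = 0.830). Syk, the kinase recruited by Tyrobp, had the smallest adjusted p of the list, at 1.48 between PR-SET7_LOBE and DEN_WT (SE 0.44, adjusted p = 0.0556). Card9, Vav1 and Inpp5d, further signalling genes of the list, were likewise higher in every PR-SET7_LOBE than in every DEN_WT library, at 1.80, 1.63 and 1.29, with adjusted p of 0.103, 0.103 and 0.179. This direction was not particular to the Trem2 path. In the same comparison 7 of 7 tested neutrophil genes, 8 of 8 T and NK cell genes and 6 of 6 B cell genes were above 0. The list's median was 0.62 in PR-SET7_LOBE and -0.63 in DEN_WT against WT. In DEN_WT the value of Tyrobp was above 0 and those of the other 5 tested genes below it, whereas that of Trem2 was above 0.

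Among the 21 pan-macrophage genes, 1 rose in DEN_WT, a share like the 5.18% of all tested genes, and 0 passed in PR-SET7_LOBE, with medians of 0.48 and 0.54. Cd14, the endotoxin co-receptor, read 8.13 and 2.49 CPM in WT and 75.7 and 104 CPM in DEN_WT (log2 fold change 4.08, SE 1.01, adjusted p = 0.0305). Msr1, a scavenger receptor for modified lipoproteins, had 2.35 in DEN_WT (SE 0.67, adjusted p = 0.0501). Fcer1g, a signalling chain of Fc receptors, had 1.88 (SE 0.62, adjusted p = 0.0798), and C1qa, a complement chain made by resident macrophages, had -1.63 (SE 0.67, adjusted p = 0.139). The summed level of the list was 645 to 1768 CPM in WT, 853 to 2317 CPM in PR-SET7_LOBE and 1127 to 1182 CPM in DEN_WT, so the WT range contained both DEN_WT libraries.

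**Figure D4:**
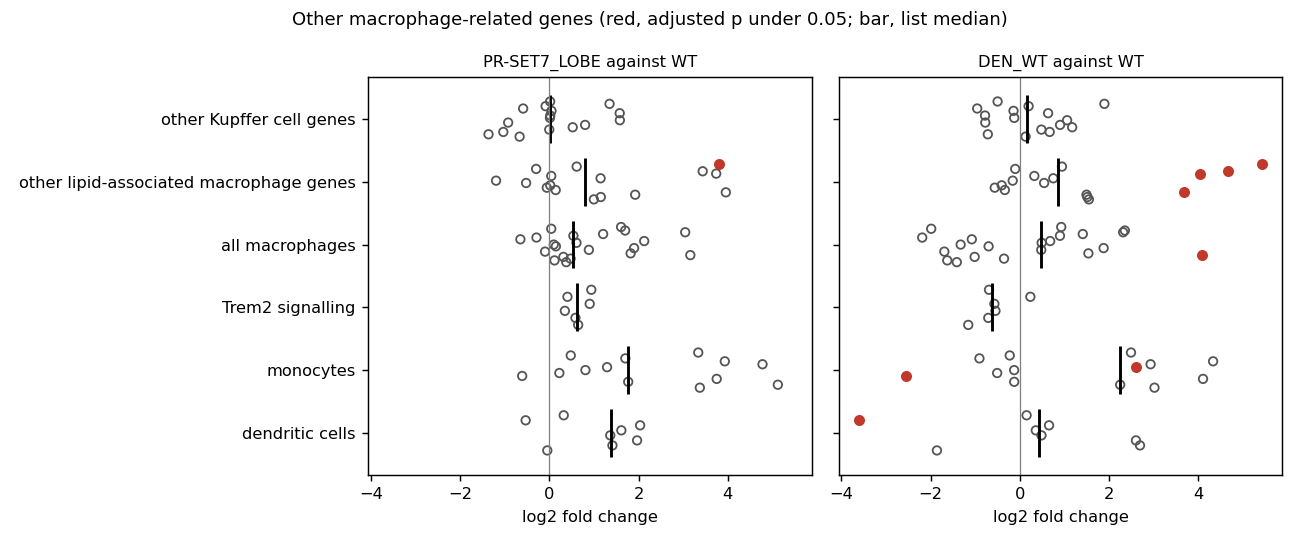
Log2 fold changes of the tested genes of 6 lists in PR-SET7_LOBE and DEN_WT against WT. Each circle is a gene, red where adjusted p was under 0.05, and the bar is the list's median. Red points are 1 gene in PR-SET7_LOBE (Spp1) and 8 in DEN_WT: Spp1, Mmp12, Cd63, Lpl, Cd14 and Plac8 higher, Itgam and Xcr1 lower.

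Genes of monocytes, the blood precursors of recruited macrophages, were low in WT. In PR-SET7_LOBE 0 of 13 passed against WT, and 12 were above 0 (median log2 fold change 1.77). In DEN_WT the list was split, with 7 of 13 above 0, a range of -2.55 to 4.33 and a median of 2.25. Plac8 rose in DEN_WT (2.60, SE 0.70, adjusted p = 0.0422) and Itgam fell (-2.55, SE 0.63, adjusted p = 0.0301). Of all tested genes, 5.18% were called higher and 4.54% lower there. Itgam, or CD11b, is also a marker of neutrophils. Spn, a sialoglycoprotein of patrolling monocytes and T cells, was higher in PR-SET7_LOBE than in DEN_WT (2.61, SE 0.73, adjusted p = 0.0436). The list summed to 43.6 to 44.9 CPM in WT, 60.6 to 120 CPM in PR-SET7_LOBE and 36.9 to 51.2 CPM in DEN_WT.

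Of 7 tested genes for macrophage growth factors, their receptors and chemokines, 0 passed. Ccl2, the main monocyte attractant, read 1.15 and 0.277 CPM in WT, 2.92 to 13.5 CPM in PR-SET7_LOBE (log2 fold change 3.68, SE 0.84, adjusted p = 0.0975) and 3.19 and 5.92 CPM in DEN_WT (2.66, SE 0.87, adjusted p = 0.0752). Cx3cl1, the membrane-bound ligand fractalkine, was also above WT in all 6 libraries, with 3.28 in PR-SET7_LOBE (SE 0.70, adjusted p = 0.0920) and 1.88 in DEN_WT (SE 0.72, adjusted p = 0.118). Csf1 and Csf2rb overlapped between WT and both groups.

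Itgax is also a dendritic cell gene. Of 8 tested dendritic cell genes, Xcr1, the chemokine receptor of cross-presenting dendritic cells, fell in DEN_WT (-3.61, SE 0.55, adjusted p = 0.0034), and 0 passed in PR-SET7_LOBE. The median log2 fold change of the list was 1.39 in PR-SET7_LOBE and 0.42 in DEN_WT, with 6 of 8 genes above 0 in each. Clec9a, another receptor of those cells, had 1.97 in PR-SET7_LOBE (adjusted p = 0.253) and 2.60 in DEN_WT (adjusted p = 0.0790), and Siglech, of plasmacytoid cells, 2.04 (adjusted p = 0.185) and 0.65 (adjusted p = 0.567). Cd209a had 1.41 (adjusted p = 0.496) and 2.69 (adjusted p = 0.162). The list summed to 29.1 to 35.2 CPM in WT, 24.4 to 41.4 CPM in PR-SET7_LOBE and 15.1 to 18.6 CPM in DEN_WT. In mean log2 CPM of the 8 tested genes the WT libraries had 0.79 and 0.44 and the PR-SET7_LOBE libraries 0.81, 1.49, 1.80 and 1.62. The DEN_WT libraries had 0.59 and 0.86. By this measure every PR-SET7_LOBE library lay above WT, as for Itgax, whereas the sums include the untested genes. No tested gene of the list was at 0 in any library, and the part of dendritic cells in the Itgax values was not tested.

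Lists of other cell types gave few calls. In DEN_WT against WT, where 4.54% of all tested genes were called lower, the calls were 2 of 7 tested neutrophil genes (Csf3r and Cxcr2), 1 of 8 T and NK cell genes (Cd3d), 1 of 6 B cell genes (Cd22), 1 of 10 stellate cell genes (Ngfr) and 1 of 10 hepatocyte genes (the urea cycle gene Ass1), all lower. The cholangiocyte genes Tspan8, Prom1 and Spp1 were higher. In PR-SET7_LOBE against WT the only call on these lists was Spp1, but several medians lay above 0 with those of the lipid-associated members. They were 1.57 for T and NK cells (7 of 8 genes above 0), 1.93 for B cells (5 of 6), 1.17 for neutrophils (4 of 7) and 2.42 for cholangiocytes (6 of 9). The mean log2 CPM of the 8 tested T and NK cell genes was -0.19 and -0.40 in WT and 0.23 to 0.92 in PR-SET7_LOBE. For the 6 tested B cell genes it was -0.39 and 0.27 in WT and 0.59 to 1.75 in PR-SET7_LOBE. Summed levels of both lists, which include the untested genes, overlapped between WT and PR-SET7_LOBE. The T and NK cell list summed to 16.6 to 18.2 CPM in WT and 16.5 to 20.1 CPM in PR-SET7_LOBE. The B cell list summed to 27.5 to 34.02 CPM in WT and 20.6 to 35.2 CPM in PR-SET7_LOBE. In DEN_WT both sums were lower, at 3.81 to 4.504 CPM for T and NK cells and 2.38 to 5.49 CPM for B cells. The cholangiocyte list summed to 39.0 to 67.5 CPM in WT, 127 to 298 CPM in PR-SET7_LOBE and 498 to 904 CPM in DEN_WT, with 3 of 9 genes called in DEN_WT. Within WT, Tspan8 and Cftr were at 0 in replicate 1. The neutrophil list summed to 38.8 to 47.1 CPM in WT, 29.96 to 58.2 CPM in PR-SET7_LOBE and 5.30 to 10.8 CPM in DEN_WT, and its genes Ngp, Ly6g and Camp were at 0 in both WT libraries. Between PR-SET7_LOBE and DEN_WT, 2 of 7 tested neutrophil genes, 2 of 6 B cell genes, 1 of 8 T and NK cell genes and 1 of 8 dendritic cell genes were called higher. In that comparison 1 of 9 cholangiocyte genes was called lower, where 4.82% of all tested genes were called higher and 6.26% lower. The part of these cell types in the members' values was not tested.

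The genes nearest to 3 members across the 8 libraries were found among 11202 genes by the root mean square difference of centred log2 CPM. Siglec1, a sialic acid receptor of resident macrophages, was nearest to Clec4f, at 0.237, followed by Rgs12 (0.270) and Bcl9 (0.273). Siglec1 read 47.4 and 10.2 CPM in WT, 24.4, 12.9, 24.2 and 12.1 CPM in PR-SET7_LOBE and 13.2 and 7.95 CPM in DEN_WT, high in WT replicate 1 as Clec4f was. Nearest to Trem2 were Ptprc, the pan-leukocyte antigen CD45 (0.493), Pik3cg, a leukocyte lipid kinase (0.506), and Dock10 (0.515). Nearest to Gpnmb were Spire2 (0.706), Phlda2 (0.741) and Plat, the tissue plasminogen activator (0.918). In PR-SET7_LOBE replicates 1 to 4, Ptprc read 2.54, 13.4, 15.2 and 7.01 CPM. In the same order Gpnmb read 39.5, 8.42, 57.1 and 18.2 CPM. The distance grows with a gene's own spread, and the SD of log2 CPM over the 8 libraries was 0.69 for Clec4f, 1.38 for Trem2 and 2.19 for Gpnmb. These distances are a description over 8 libraries that fall into 3 groups.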

How the data were processed

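Per the labels' protocols, poly(A) RNA of whole liver was sequenced on an Ion Proton. The authors deposited raw counts per gene on build mm9, and the submitters' processing notes name TopHat2 2.0.9, Cufflinks and DESeq; the sources used here do not give the counting rule, strand or annotation. The members, lists and tests were chosen with earlier results of these data known. All 8 libraries were fitted together with edgeR 4.0.16 (robust quasi-likelihood, TMM scaling, filterByExpr, group as the only term), with Benjamini-Hochberg adjustment over 17362 of 37583 genes, a threshold of 0.05 and a common biological coefficient of variation of 0.479. CPM are counts per 1000000 of TMM-scaled library size. Log2 CPM in list means used a prior count of 2 and only the tested genes of a list. Summed CPM covered every listed gene.

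Totals ran from 7305595 to 16108081 counts, so 3 counts corresponded to at most 0.411 CPM by total count. Amplified reads are not independent molecules, so counting limits cover counting error only. Transcript lengths were those of the principal GENCODE M21 transcript, a choice made after lengths over all exons had looked too long. Sequence copies were sought with blastn 2.17.0. All named genes follow 1 rule: every member, up to 4 genes of each list by smallest adjusted p plus any called, and the 3 nearest genes of Clec4f, Trem2 and Gpnmb. A gene that this rule names is not reported here. Setd8, Itgad, Cd9-ps, Tyrobp, Fcna and the genes named as examples of a list were added after values were seen. Alternatives were other scalings, filters, DESeq2 1.42.0, a replicate block, fits of 2 groups and leaving out each library. The fit was tested on simulated counts.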

Additional observations from a re-analysis of the deposited data

Results flagged for a closer look

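Marco in the 4 PR-SET7_LOBE libraries was the 1 member with a library far from the others of its group. Replicate 1 read 57.0 CPM and the other 3 libraries 0.464 to 2.49 CPM, so the gap to the next library was 0.964 of the whole range, above Dixon's critical value for 4 samples. On the log2 scale the ratio was 0.684, below that value, and CPM was taken as the scale after both had been seen. The 10 members were each tested in this group, and chance marks about 1 in 20 such groups.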

How the results depend on the processing

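Of 477 alternative values of the members' log2 fold changes, 428 kept their direction and their side of the threshold, 15 lost it, 13 gained it and 21 changed sign; 0 of the 21 belonged to a member called in the report. Marco did not pass the strict count filter. DESeq2 gave it no adjusted p, and its DESeq2 values were counted as not passing. Genes called in PR-SET7_LOBE against WT numbered 43 and became 66 with upper-quartile scaling, 96 with total counts only, 419 with no count filter, 19 with only these 2 groups, and 890 with DESeq2. In DEN_WT against WT, 1689 became 5643 with only these 2 groups and 3144 with DESeq2. Members called in PR-SET7_LOBE against WT, 1 in the report, became 2 with upper-quartile scaling, total counts or no filter, 0 with only these 2 groups and 3 with DESeq2. The causes were not tested. Total-count scaling was added after seeing the data. The share of calls that were higher in PR-SET7_LOBE was 60.5%, against 71.2% with upper-quartile and 88.5% with total-count scaling, where the all-gene median was 0.29 and 0.79 in place of 0.11. In DEN_WT it was 53.3%, against 73.3% with total counts, where that median was 0.65. With no count filter the all-gene median was 0.52 in PR-SET7_LOBE against WT and 0 in DEN_WT against WT. The sign changed for Cd5l in PR-SET7_LOBE against WT with no filter (-0.015) and for Cd9 between PR-SET7_LOBE and DEN_WT with total counts (0.0037).

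Leaving out each library in turn gave 1 to 2392 called genes in PR-SET7_LOBE against WT, 329 to 4549 in DEN_WT against WT and 454 to 2662 between PR-SET7_LOBE and DEN_WT. The highest of each came without PR-SET7_LOBE replicate 1, the lowest without WT replicate 2 in the first and without DEN_WT replicate 2 in the others. Members called ranged from 0 to 3 in PR-SET7_LOBE and from 0 to 2 in DEN_WT, and 0 were called between the groups. Where a lone library was left in a group, it was assumed to vary like the others. With libraries left out, log2 fold changes that changed sign in PR-SET7_LOBE against WT ranged from -1.43 to 0.24 (Clec4f), -0.028 to 0.80 (Vsig4), -0.65 to 3.54 (Marco), -0.59 to 1.33 (Cd5l) and -0.18 to 1.17 (Cd68). In DEN_WT against WT they ranged from -0.39 to 1.24 (Marco), -1.64 to 0.28 (Cd5l), -0.30 to 1.10 (Emr1) and -0.44 to 0.91 (Cd68). Between PR-SET7_LOBE and DEN_WT they ranged from -0.75 to 0.25 (Vsig4), -1.28 to 3.39 (Marco) and -0.41 to 0.14 (Cd9).

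The labels number replicates, but nothing says that equal numbers share an animal or run. Deviations of same-numbered libraries correlated by 0.165 and 0.106 between WT and PR-SET7_LOBE, by 0.0599 between WT and DEN_WT, and by -0.0087 and 0.0200 between PR-SET7_LOBE and DEN_WT. A fit with the replicate number as a block called 243 genes and 2 members (Gpnmb and Itgax) in PR-SET7_LOBE against WT, 3137 genes in DEN_WT against WT, and 1 member (Marco) between PR-SET7_LOBE and DEN_WT, and turned Vsig4 in PR-SET7_LOBE against WT to -0.15. Replicate numbers 3 and 4 occur only in PR-SET7_LOBE, so the block fit compares that group through its replicates 1 and 2 alone. In the 2 WT libraries Trem2, Gpnmb and Itgax held only 3 to 20 counts each.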
